A study of Homo sapiens with 12 samples.

Results

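The enzymes of serine, one-carbon, asparagine and proline synthesis were examined in human motor neuron cultures exposed to the organochlorine pesticide cis-chlordane. They were taken as the rows named PHGDH, PSAT1, PSPH, SHMT1, SHMT2, MTHFD2, MTHFD1L, ALDH1L2, ASNS and PYCR1, that is 10 genes among the 28278 gene symbols of the count table. All 10 passed the filter on low counts in every comparison. The cultures were differentiated from WA09-Islet1-GFP, a wild-type human embryonic stem cell line that makes GFP where the motor neuron transcription factor Islet1 is expressed. For 16 hours they were given cis-chlordane or the same volume of the solvent DMSO, after which FACS separated GFP-positive from GFP-negative cells. This gave 4 groups of 3 RNA-seq libraries, that is each sort fraction with and without the pesticide. The dose is 10 µM in the sample labels. A different dose stands in the methods of the study. The titles of the treated samples also begin with the word untreated, so that the treatment entry of the labels was used. All libraries derive from this single line, and a replicate is a separate thaw of frozen motor neurons, so p-values describe the spread between thaws and not between people.

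Libraries held between 23414935 and 38347050 counts on genes, and each library correlated better with its own group than with any library of another group. ISL1, which encodes Islet1, had 62.4 to 68.6 CPM in control GFP-positive and 2.41 to 2.79 CPM in control GFP-negative cells, and 8.01 to 15.3 CPM and 0.389 to 0.691 CPM after treatment. CPM are library-size scaled counts after TMM normalization. GFP-negative cells are labelled motor neurons as well, but they carried little ISL1 and more of the 9 markers of cycling cells, whose summed level was 1245 to 1274 CPM in control GFP-negative and 180 to 231 CPM in control GFP-positive libraries. After treatment the same sums were 392 to 463 CPM in GFP-negative and 108 to 140 CPM in GFP-positive libraries. In such bulk samples fewer cells of a type and less RNA per cell cannot be told apart.

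Serine is made from a glycolytic intermediate in a chain of enzyme steps. PHGDH oxidizes phosphoglycerate, PSAT1 transfers an amino group from glutamate, and PSPH removes the phosphate. Serine hydroxymethyltransferases, SHMT1 in the cytosol and SHMT2 in mitochondria, then split serine into glycine and a carbon unit carried by folate. In mitochondria MTHFD2 oxidizes that unit, MTHFD1L releases it as formate for use in the cytosol, and ALDH1L2 can oxidize it to carbon dioxide with production of NADPH. ASNS makes asparagine from aspartate and glutamine, and PYCR1 completes proline synthesis in mitochondria. Many of these genes are known as targets of ATF4, a transcription factor of the integrated stress response, which binds with partner proteins to a composite element that contains the letters TGATGNAA.

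The promoters of 4 of the genes are shown because they differ in that element while the genes were measured side by side. They run from 250 bases before to 50 bases after a RefSeq transcription start of GRCh38.p14, 5′ to 3′ on the strand of the gene. Capitals mark TGATGNAA, which was searched as such and as its reverse complement TTNCATCA.
ASNS, chr7:97872359-97872658, minus strand: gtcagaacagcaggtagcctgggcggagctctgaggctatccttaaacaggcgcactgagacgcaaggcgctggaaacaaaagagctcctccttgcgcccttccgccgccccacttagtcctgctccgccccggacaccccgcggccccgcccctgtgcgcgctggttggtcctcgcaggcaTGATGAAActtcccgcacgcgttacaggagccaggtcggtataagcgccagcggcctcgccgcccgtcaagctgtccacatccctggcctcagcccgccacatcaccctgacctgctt
MTHFD1L, chr6:150866236-150866535, plus strand: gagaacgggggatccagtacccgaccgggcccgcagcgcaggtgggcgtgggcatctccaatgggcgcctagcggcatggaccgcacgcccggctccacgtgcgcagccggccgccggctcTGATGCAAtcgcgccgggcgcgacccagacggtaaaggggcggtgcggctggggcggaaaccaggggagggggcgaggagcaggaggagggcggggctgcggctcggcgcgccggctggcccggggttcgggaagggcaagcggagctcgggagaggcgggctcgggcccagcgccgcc
MTHFD2, chr2:74198365-74198664, plus strand: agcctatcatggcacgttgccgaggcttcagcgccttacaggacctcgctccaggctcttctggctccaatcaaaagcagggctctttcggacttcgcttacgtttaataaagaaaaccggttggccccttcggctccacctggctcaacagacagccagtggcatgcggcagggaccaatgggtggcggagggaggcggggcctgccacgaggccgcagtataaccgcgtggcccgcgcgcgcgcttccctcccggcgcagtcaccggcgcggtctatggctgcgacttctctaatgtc
SHMT1, chr17:18363501-18363800, minus strand: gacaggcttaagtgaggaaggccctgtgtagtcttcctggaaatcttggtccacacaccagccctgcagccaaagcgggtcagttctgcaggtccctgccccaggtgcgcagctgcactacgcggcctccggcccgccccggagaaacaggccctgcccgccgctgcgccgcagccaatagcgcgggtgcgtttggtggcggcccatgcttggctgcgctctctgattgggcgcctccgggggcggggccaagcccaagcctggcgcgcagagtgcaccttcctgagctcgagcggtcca

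The element stood 68 to 61 bases before the start of ASNS as TGATGAAA, and 129 to 122 bases before the start shown for MTHFD1L as TGATGCAA. Of the 4 RefSeq starts of MTHFD1L, 3 lie close together and hold the same 8 bases in their windows, and the other does not. A second start of ASNS has no match. Neither the MTHFD2 nor the SHMT1 window shown holds these letters, and the windows of PHGDH and PSAT1 do not hold them either. Over all 35116 promoters of the same length, 1270 (3.62%) held the element. A match of letters is not a measurement of binding. PSPH, SHMT2, ALDH1L2 and PYCR1 had no entry among these promoters.

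The genes were first compared between treated and control GFP-positive cells, the fraction that the study takes as motor neurons. In treated cells 9 of the 10 genes were higher and SHMT1 was lower, with adjusted p under 0.05 in edgeR's quasi-likelihood test for all 10, which 50.9% of tested genes had. With the added limit of a 2-fold change, which is what "called" means below, 8 were called higher and 0 lower, where 12.8% of the 15333 genes tested were called higher and 11.2% lower. In all 10 genes the 3 treated libraries lay on one side of the 3 control libraries, 9 above and SHMT1 below, which was so for 26.9% of tested genes in the upward and 30.6% in the downward direction. The median log2 fold change of the 10 genes was 1.81, and that of all tested genes was 0.03. The 10 genes were chosen with earlier results of these data known. These shares and medians thus describe the genes and do not test them as a set. Summed over the 10 genes, the level was 476 to 646 CPM in control and 2496 to 2775 CPM in treated GFP-positive libraries. The same comparison in GFP-negative cells called 9 genes higher and SHMT1 lower, against 8.59% and 9.75% of 15513 tested genes. All 10 again had an adjusted p under 0.05 (31.5% of tested genes) and no overlap between the groups (24% of tested genes upward and 22.6% downward). There the sum was 879 to 1050 CPM in controls and 3623 to 4264 CPM after treatment. The summed level of motor neuron markers fell in the same comparisons. Of 7 such markers 5 were called lower in treated GFP-positive cells, and their summed level was 1173 to 1386 CPM in control and 288 to 432 CPM in treated libraries. In GFP-negative cells 4 of the 7 were called lower, with sums of 195 to 217 and 62.9 to 82.0 CPM. Of the others, ISL2 (log2 fold change 1.15) and MNX1 (0.13) were higher there and were not called. ISL1, whose expression the GFP sort reports, was among those called lower in both fractions, with log2 fold changes of -2.4 and -2.2. Whether treated and control sorts held the same cells was not tested, nor was the part of these markers in the result. The plot of levels by library shows these values gene by gene.

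**Figure D1:**
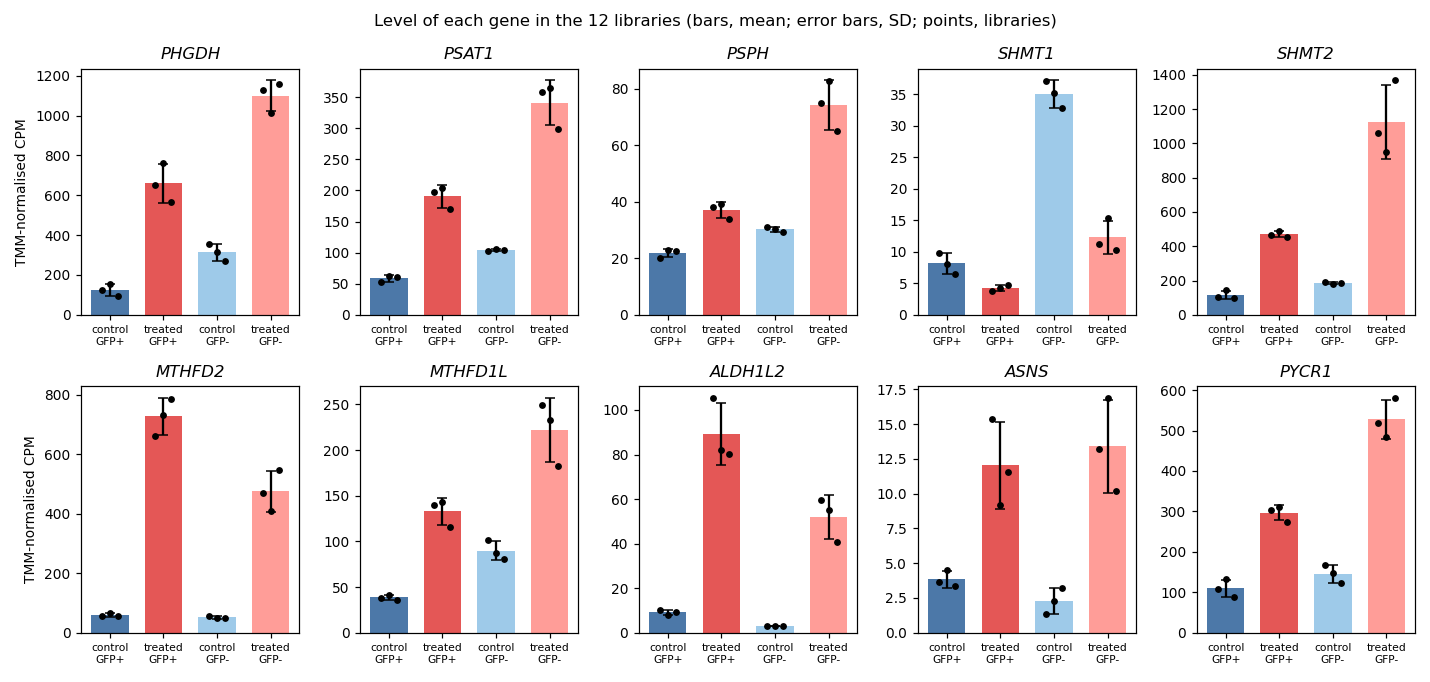
Level of each gene (vertical axis, TMM-normalised CPM, from 0) in the 4 groups; bars are means, error bars SD, and points the 3 libraries of a group. Treated libraries lie above the control libraries of the same sort fraction in 9 panels, and below them for SHMT1, which is highest in control GFP-negative cells at 32.8 to 37.1 CPM.

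All 3 enzymes of serine synthesis were higher in treated cells. PHGDH, the first enzyme (chromosome 1, 119648411 to 119744218, GRCh38), had 124, 156 and 92.5 CPM in control and 653, 761 and 566 CPM in treated GFP-positive libraries. Its log2 fold change was 2.48 ± 0.18 (SE, adjusted p = 1.6e-13). GFP-negative cells started higher, at 357, 313 and 270 CPM, and reached 1126, 1011 and 1160 CPM, a log2 fold change of 1.79 ± 0.16 (SE, adjusted p = 7.3e-05). Treated and control libraries were thus well apart in both fractions, and the lowest treated GFP-positive library stood above the highest control GFP-negative library.

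PSAT1 (chromosome 9, 78297125 to 78330093), the aminotransferase, went from 52.3, 62.0 and 61.2 to 197, 204 and 170 CPM in GFP-positive cells, a log2 fold change of 1.77 ± 0.16 (SE, adjusted p = 4e-11). Among GFP-negative libraries PSAT1 went from 102, 106 and 104 to 359, 365 and 299 CPM, a log2 fold change of 1.69 ± 0.15 (SE, adjusted p = 7.7e-05). PSPH (chromosome 7, 56011051 to 56051604), the phosphatase that completes serine, changed least of the 3. It had 20.2, 22.9 and 22.7 CPM in control and 38.1, 39.2 and 33.8 CPM in treated GFP-positive libraries, and its log2 fold change of 0.82 ± 0.18 (SE, adjusted p = 0.00023) was below the 2-fold limit. In GFP-negative libraries PSPH was called, from 31.2, 30.2 and 29.4 to 74.8, 82.6 and 64.9 CPM, a log2 fold change of 1.27 ± 0.16 (SE, adjusted p = 0.00045).

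The cytosolic and the mitochondrial serine hydroxymethyltransferase moved in opposite directions. SHMT2 (chromosome 12, 57229573 to 57234935), the mitochondrial enzyme, had 103, 145 and 98.0 CPM in control and 466, 488 and 453 CPM in treated GFP-positive cells, a log2 fold change of 2.09 ± 0.17 (SE, adjusted p = 2e-12). GFP-negative levels of SHMT2 went from 193, 180 and 184 to 1063, 949 and 1368 CPM, a log2 fold change of 2.58 ± 0.17 (SE, adjusted p = 1.8e-05). SHMT1 (chromosome 17, 18327860 to 18363563), the cytosolic enzyme, had 9.84, 8.14 and 6.56 CPM in control and 3.72, 4.29 and 4.74 CPM in treated GFP-positive cells, on 124 to 281 counts per library. Its log2 fold change there was -0.88 ± 0.24 (SE, adjusted p = 0.0026), under the 2-fold limit, and -1.02 with control GFP-positive replicate 3 left out, where it was called. In GFP-negative cells SHMT1 was called lower, from 37.1, 35.3 and 32.8 to 11.3, 15.3 and 10.4 CPM, a log2 fold change of -1.53 ± 0.20 (SE, adjusted p = 0.00056). Of the 9 markers of cycling cells, 9 were called lower in treated GFP-negative cells and 3 in treated GFP-positive cells. Their part in the fall of SHMT1 was not tested.

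The 3 mitochondrial folate enzymes held the genes with the greatest rise of the 10. MTHFD2 (chromosome 2, 74186172 to 74217565), a dehydrogenase and cyclohydrolase, had 54.9, 66.4 and 56.9 CPM in control and 664, 734 and 786 CPM in treated GFP-positive cells. Its log2 fold change was 3.68 ± 0.17 (SE, adjusted p = 1.1e-18), which is 12.8-fold. In GFP-negative cells it went from 55.8, 48.8 and 49.3 to 471, 411 and 548 CPM, a log2 fold change of 3.19 ± 0.17 (SE, adjusted p = 8.2e-06). The control ranges of MTHFD2 overlapped between the fractions, and among treated libraries every GFP-positive one was above every GFP-negative one.

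ALDH1L2 (chromosome 12, 105019784 to 105107643) started from a low level. It had 10.1, 7.94 and 9.34 CPM in control and 105, 82.1 and 80.4 CPM in treated GFP-positive libraries, a log2 fold change of 3.36 ± 0.19 (SE, adjusted p = 2.5e-16). ALDH1L2 went in GFP-negative cells from 3.05, 3.11 and 3.15 to 59.5, 55.2 and 40.7 CPM, a log2 fold change of 4.04 ± 0.22 (SE, adjusted p = 8.2e-06) or 16.4-fold, on 79 to 106 counts per control library. MTHFD1L (chromosome 6, 150865679 to 151101887), the formate-releasing enzyme, had 38.3, 41.3 and 36.1 CPM in control and 140, 143 and 116 CPM in treated GFP-positive cells, a log2 fold change of 1.85 ± 0.17 (SE, adjusted p = 2.5e-11). In GFP-negative cells it had 102, 87.0 and 80.9 CPM in controls and 250, 234 and 183 CPM after treatment, a log2 fold change of 1.29 ± 0.18 (SE, adjusted p = 0.00068).

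ASNS (chromosome 7, 97851677 to 97872542) rose from 3.62, 4.52 and 3.36 to 15.4, 9.19 and 11.6 CPM in GFP-positive cells, a log2 fold change of 1.72 ± 0.24 (SE, adjusted p = 2.1e-07). In GFP-negative cells it went from 1.35, 2.26 and 3.19 to 13.2, 16.9 and 10.2 CPM, a log2 fold change of 2.55 ± 0.35 (SE, adjusted p = 0.00071). The groups did not overlap, but ASNS had only 41 to 513 counts per library. In GENCODE release 44, 99.5% of the exon bases of its canonical transcript are shared with a read-through gene on the same strand, while the other 9 genes share 0% with a same-strand gene. The table lists a read-through gene, CZ1P-ASNS, with 25 to 106 counts per library, and a pseudogene, ASNSP1, with at most 3 counts in any control and 21 to 79 counts in the treated libraries. How reads in shared bases were counted is not given in the sources used here, so the level of ASNS is uncertain.

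PYCR1 (chromosome 17, 81932384 to 81942412) had 107, 132 and 89.0 CPM in control and 304, 310 and 275 CPM in treated GFP-positive cells, a log2 fold change of 1.51 ± 0.17 (SE, adjusted p = 2.1e-09). In GFP-negative cells it went from 167, 148 and 123 to 519, 484 and 580 CPM, a log2 fold change of 1.83 ± 0.17 (SE, adjusted p = 8.9e-05). Its rise was the smallest of the genes called in GFP-positive cells.

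**Figure D2:**
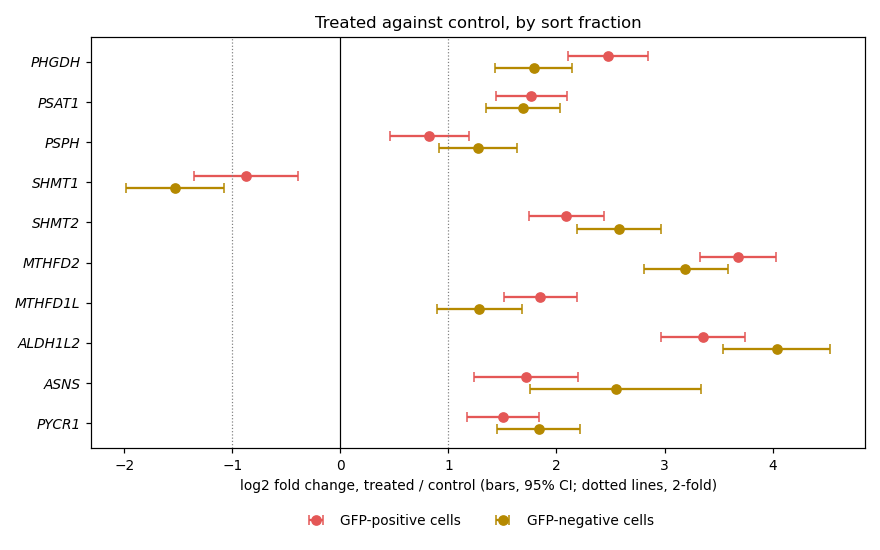
Log2 fold change of treated against control cells (horizontal axis) for each gene, with points for the estimate in each sort fraction, bars for its 95% confidence interval and dotted lines at a 2-fold change. ALDH1L2 and MTHFD2 lie farthest to the right, at 4.04 and 3.19 in GFP-negative and 3.36 and 3.68 in GFP-positive cells, and SHMT1 lies left of 0 in both.

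Levels of different genes were compared as RPKM, that is CPM per kilobase of the canonical transcript, which depends on the transcript taken. In control GFP-positive cells PHGDH (66.4 RPKM), SHMT2 (53.5) and PYCR1 (48.2) led, and neighbours among these 3 overlapped between libraries. PSAT1 (26.5), MTHFD2 (13.5), MTHFD1L (11.2) and PSPH (11.1) followed, of which MTHFD1L and PSPH overlapped, and SHMT1 (3.24), ASNS (1.61) and ALDH1L2 (1.23) were lowest. After treatment the order in GFP-positive cells was PHGDH (354 RPKM), SHMT2 (218), MTHFD2 (165), PYCR1 (131), PSAT1 (86.3), MTHFD1L (38.5), PSPH (18.8), ALDH1L2 (12.0), ASNS (5.05) and SHMT1 (1.68), and no neighbours overlapped. MTHFD2 thus passed PYCR1 and PSAT1, and SHMT1 moved to the end.

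In control GFP-negative cells PHGDH was again first (168 RPKM) and SHMT2 second (86.1), while SHMT1 (13.9) stood above MTHFD2 (11.6) and ALDH1L2 was last (0.418). In treated GFP-negative cells PHGDH (589) and SHMT2 (522) overlapped, and SHMT1 (4.88), ASNS (5.62) and ALDH1L2 (6.97) overlapped at the low end.

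Ratios of partner enzymes within a library do not depend on scaling between libraries. They are given as a description, with RPKM of the first gene over that of the second. SHMT2 to SHMT1 was 12.3, 20.9 and 17.5 in control and 147, 133 and 112 in treated GFP-positive cells, and 6.10, 5.96 and 6.57 in control and 110.1, 72.6 and 155 in treated GFP-negative cells. The groups did not overlap in either fraction, while between the fractions the control ranges lay apart and the treated ranges overlapped.

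MTHFD1L was also set against MTHFD1, its cytosolic relative, which was chosen for this ratio with its values known, as was MTHFD2L. MTHFD1L to MTHFD1 was 0.840 to 0.953 in control and 3.03 to 3.88 in treated GFP-positive cells, and 0.840 to 0.947 and 3.94 to 4.83 in GFP-negative cells. MTHFD1 itself had a log2 fold change of -0.12 ± 0.17 (SE, adjusted p = 0.59) in GFP-positive cells and was called lower in GFP-negative cells at -1.04 ± 0.20 (SE, adjusted p = 0.0037). MTHFD2 to MTHFD2L, a mitochondrial enzyme of similar function, was 2.42 to 3.20 in control and 25.9 to 28.8 in treated GFP-positive cells, and 2.06 to 2.34 and 18.7 to 22.6 in GFP-negative cells. The named enzyme of each pair gained on its partner in every treated library.

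**Figure D3:**
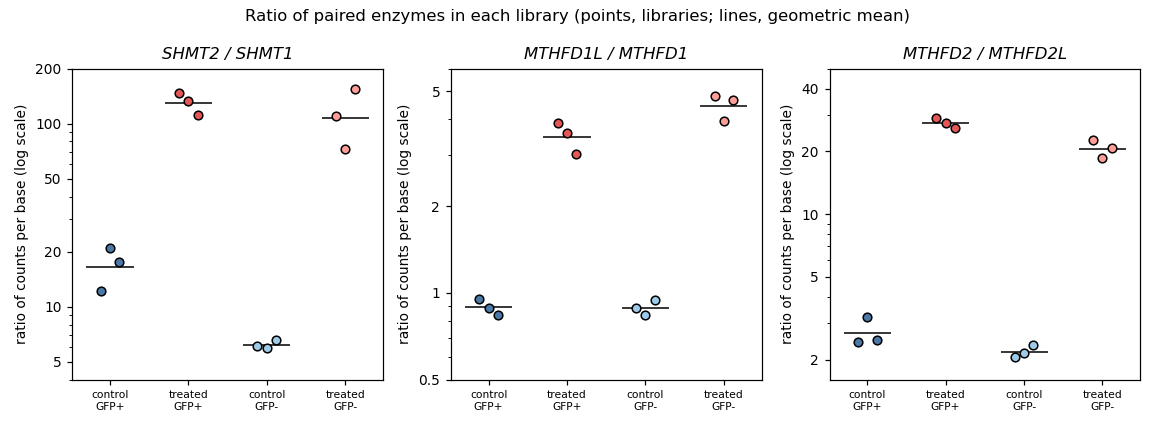
Ratio of counts per base of paired enzymes in each library (vertical axes, log scale, a separate range in each panel); points are libraries and lines geometric means of the 3 libraries of a group. In all 3 panels the treated libraries lie above the control libraries of the same sort fraction, as for MTHFD2 to MTHFD2L, at 2.42 to 3.20 in controls and 25.9 to 28.8 after treatment in GFP-positive cells.

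The other genes of the connected pathways were taken from 6 lists of 55 genes, of which 45 were tested in GFP-positive cells. Treatment called 4 higher and 1 lower there, with a median log2 fold change of -0.004. With 12.8% of all tested genes called higher and 11.2% lower, the lists did not exceed the background in either direction. SLC25A32, which carries folate into mitochondria, rose from 11.9 to 13.6 CPM in controls to 30.6 to 37.2 CPM in treated cells, a log2 fold change of 1.44 ± 0.19 (SE, adjusted p = 8.1e-08), and was the only one called of 5 tested genes of folate uptake and retention. CTH, which makes cysteine from cystathionine, rose by 2.01 ± 0.21 (SE, adjusted p = 4.2e-10) on the log2 scale, the only one called of 7 tested genes of the methionine cycle and transsulfuration. GPT2, a mitochondrial alanine aminotransferase, rose by 1.52 ± 0.16 (SE, adjusted p = 7.8e-10), and GOT1, the cytosolic aspartate aminotransferase, by 1.24 ± 0.16 (SE, adjusted p = 6.2e-08). These were 2 of 9 genes of aspartate, asparagine, glutamate and alanine metabolism. ALDH4A1, which oxidizes the intermediate of proline breakdown to glutamate, was called lower at -1.44 ± 0.19 (SE, adjusted p = 7.4e-08), the only one called of 4 tested genes of proline and ornithine metabolism. Without the 2-fold limit, 4 of the 5 folate uptake genes and 5 of the 7 methionine cycle genes had an adjusted p under 0.05. So did 3 of the 4 proline and ornithine genes and 4 of the 9 genes of aspartate and related metabolism. Among all tested genes the share was 50.9%. These genes included both rises and falls in each list.

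None of 11 tested cytosolic and other folate enzymes was called in GFP-positive cells, with 0 at an adjusted p under 0.05 and log2 fold changes of -0.52 to 0.49. Among 9 tested genes of serine and glycine use and transport 0 were called, with values from -0.91 to 0.40, and 2 had an adjusted p under 0.05. These were GLDC at -0.91 (adjusted p = 7.1e-05) and AMT at -0.63 (adjusted p = 0.0046), both of the glycine cleavage system and both named once their values were known. The smallest changes of 5 of the lists were -0.02 for ATIC, an enzyme of purine synthesis, 0.20 for GGH, which trims folate chains, 0.01 for SRR, which makes D-serine, -0.21 for MAT2B, a subunit of the S-adenosylmethionine synthase, and -0.004 for GLUD1, a glutamate dehydrogenase. Their 95% confidence intervals reached no further than 0.65 on either side.

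In GFP-negative cells 4 of 46 tested genes of the lists were called higher and 6 lower, with a median of 0.01. Over all tested genes the shares were 8.59% and 9.75%, so that these counts stood near the background. SLC25A32 (1.31), CTH (2.62), GPT2 (1.41) and GOT1 (2.30) were the 4 called higher. Among the cytosolic and other folate enzymes, MTHFD1 and TYMS were called lower there. TYMS, the thymidylate synthase, had a log2 fold change of -1.60 (adjusted p = 0.00044). It was picked for naming once its value was known, and it is also among the markers of cycling cells, whose part here was not tested.

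**Figure D4:**
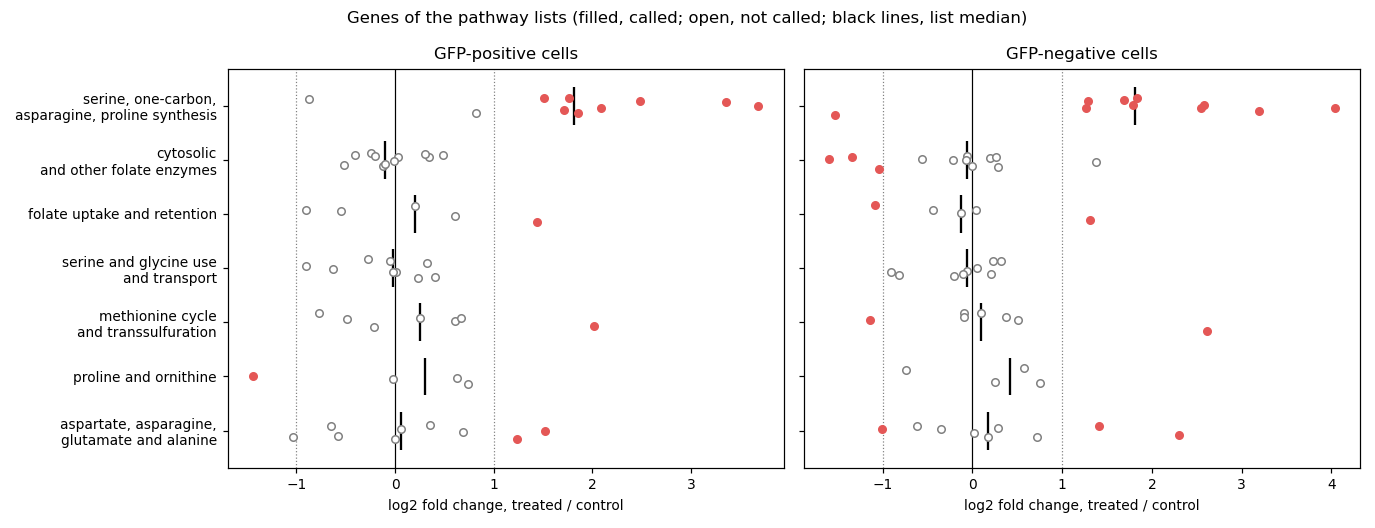
Log2 fold change of treated against control cells (horizontal axis) for the tested genes of each list, with filled points for called genes, open points for the others and black lines for list medians; vertical positions within a list are spread only for legibility. The 10 genes of serine, one-carbon, asparagine and proline synthesis have a median of 1.81 in GFP-positive cells, and the cytosolic and other folate enzymes lie between -0.52 and 0.49. Genes and lists were chosen with earlier results of these data known.

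Sort fractions were then compared within each treatment, which asks how GFP-positive cells differ from GFP-negative cells. These comparisons use the same libraries as those of treatment. In control cultures 3 of the 10 genes were called lower and 1 higher in GFP-positive than in GFP-negative cells, against 15.3% and 7.47% of 15404 tested genes. Of the 10, 8 had an adjusted p under 0.05, as did 40.2% of tested genes. SHMT1 was lower at a log2 fold change of -2.21 ± 0.20 (SE, adjusted p = 1.9e-05), PHGDH at -1.44 ± 0.20 (SE, adjusted p = 0.00028) and MTHFD1L at -1.32 ± 0.15 (SE, adjusted p = 7.9e-05). ALDH1L2 was higher at 1.45 ± 0.23 (SE, adjusted p = 0.00065). PSAT1 (-0.94), SHMT2 (-0.79), PSPH (-0.57) and PYCR1 (-0.52) had adjusted p of at most 0.036 but under a 2-fold difference. For MTHFD2 the difference was 0.11 (95% confidence interval -0.22 to 0.44) and for ASNS 0.65 (-0.13 to 1.43), and neither passed the test.

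In treated cultures 2 genes were called lower and 0 higher in GFP-positive cells, against 13.7% and 10% of 15416 tested genes. They were SHMT1 at -1.52 ± 0.23 (SE, adjusted p = 0.00017) and SHMT2 at -1.24 ± 0.15 (SE, adjusted p = 3.1e-05). SHMT2 had -0.95 and was not called once a trend with GC content was removed, an alternative added after seeing the data. PSPH had -0.98 and lay just under the limit, and it was called lower in 6 of 14 alternatives. At an adjusted p under 0.05, which 9 of the 10 genes and 49.8% of tested genes had, MTHFD2 (0.64) and ALDH1L2 (0.80) were higher in GFP-positive cells, while PHGDH (-0.71), PSAT1 (-0.82), MTHFD1L (-0.72) and PYCR1 (-0.81) were lower, and ASNS had -0.14 (95% confidence interval -0.67 to 0.39). Of the 9 markers of cycling cells, 9 were called lower in control and 7 in treated GFP-positive cells. Of 8 tested neural progenitor markers, 7 and 5 were called lower. Of 7 motor neuron markers, 6 were called higher and 1, LHX3, lower in control GFP-positive cells, and 4 and 1 in treated ones. Neuron markers summed to 13610 to 16550 CPM in control GFP-positive and 6929 to 7429 CPM in control GFP-negative libraries. In treated libraries they summed to 6804 to 8684 CPM in GFP-positive and 4092 to 4929 CPM in GFP-negative cells. The part of these markers in these differences was not tested.

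**Figure D5:**
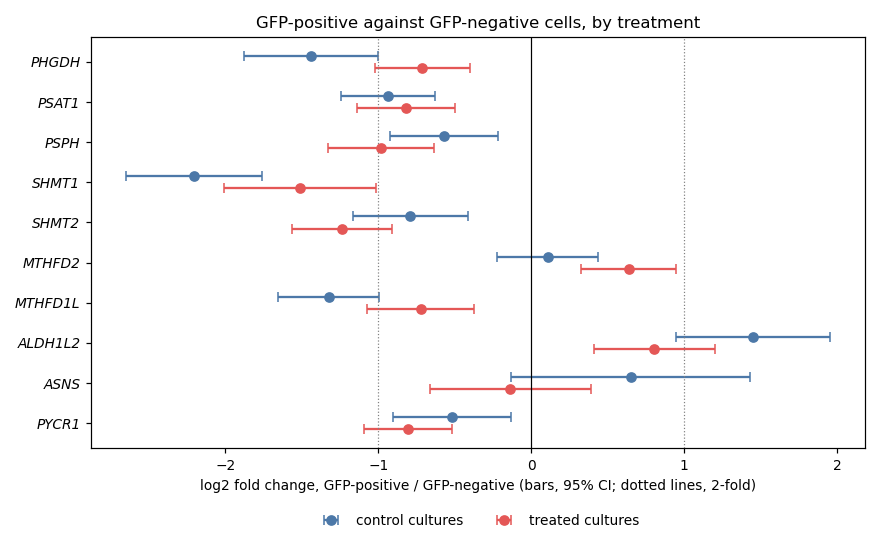
Log2 fold change of GFP-positive against GFP-negative cells (horizontal axis) for each gene, with points for the estimate in control and in treated cultures, bars for the 95% confidence interval and dotted lines at a 2-fold difference. SHMT1 lies farthest to the left at -2.21 in control and -1.52 in treated cultures, and ALDH1L2 lies on the right at 1.45 and 0.80.

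Whether the response differed between the fractions was tested by an interaction term between treatment and GFP sort, without a limit on fold change. None of the 10 genes had an adjusted p under 0.05 in edgeR's test, against 2.19% of 16226 genes, while 6 had an unadjusted p under 0.05, and DESeq2 also called 0. Those 6 were PHGDH and MTHFD1L, with a larger log2 fold change in GFP-positive cells by 0.60 (95% confidence interval 0.06 to 1.14) and 0.48 (0.02 to 0.94), and ALDH1L2, ASNS, SHMT2 and PSPH, with a smaller one, by -0.77 (-1.32 to -0.22), -0.92 (-1.80 to -0.04), -0.58 (-1.08 to -0.08) and -0.53 (-0.98 to -0.09). Libraries with the same treatment and number deviated from their group means together and were taken as sorts of a culture, and with the culture as a replicate block ALDH1L2 passed, at -0.75 ± 0.20 (SE, adjusted p = 0.038), where 7.79% of genes passed. PSAT1 had an interaction of -0.01 (-0.42 to 0.40), so that a difference between the fractions of more than 0.42 on the log2 scale lies outside its interval.

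As a description of genes with a like pattern, the mean standardized log2 CPM of PHGDH, PSAT1 and PSPH was correlated with each of 13830 genes over the 12 libraries, which share 4 group means. Outside the genes and lists above, CCNK (r = 0.99), DAP (0.99), NGEF (0.99), TSEN15 (0.99) and STK40 (0.98) were closest. MTHFD1L (0.98), SHMT2 (0.98) and PYCR1 (0.97) followed the serine genes about as closely. MTHFD2 (0.80), ASNS (0.73) and ALDH1L2 (0.68), which were not lower in control GFP-positive cells, were less alike, and SHMT1 had r of -0.08.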

How the data were processed

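RNA-seq counts of 12 libraries in 4 groups of 3 were used, with groups taken from the sample labels. The authors sorted cells, isolated RNA with TRIzol, prepared libraries with the Illumina Stranded mRNA workflow and mapped reads to hg38 with HISAT2. featureCounts is named in the submitters' processing notes, and its settings are not given in the sources used here. The authors deposited raw counts per gene symbol, and 0 per-sample columns were left unused. Depth of 23414935 to 38347050 counts sets the precision.

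Counts were scaled by TMM and tested with edgeR 4.0.16 (quasi-likelihood F-test, two-sided) in R 4.3.3, after filterByExpr with a minimum count of 10 and a minimum total of 15, with p-values adjusted by Benjamini-Hochberg across the tested genes. Calls needed a 2-fold change and an adjusted p under 0.05, and interactions only the latter. Each comparison was fitted on its own 6 libraries, the interaction on all 12. An exact permutation test of 3 against 3 libraries has a smallest p of 0.1, so it was not used. Alternatives used DESeq2 1.42.0, the method the study's text names, other scalings, no filter, a replicate block, glmTreat, a fit of all 12 libraries, left-out libraries and, added after seeing the data, removal of a GC trend by loess with span 0.5. The fits were tested on simulated data.

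The genes and lists were chosen with earlier results of these data known. Named genes were the 10 members, up to 3 called genes and the gene of smallest change per pathway list, and the 5 genes closest in pattern; others are marked, and some genes that this rule picks are not reported here. Same-numbered GFP-positive and GFP-negative libraries were taken to pair as sorts of a culture. Their deviations from group means were correlated over 13813 genes with a mean of at least 1 CPM. The correlations were 0.38, 0.12 and 0.30 (control) or 0.28, 0.28 and 0.46 (treated). No 2 libraries of a group agreed within sampling noise. Positions, lengths and GC content came from GENCODE release 44, matched for 25763 of 28278 symbols, and promoters from RefSeq. The symbols look like RefSeq names although the study names an Ensembl annotation. matplotlib 3.10.9 (Python 3.11.15) drew the figures.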

Additional observations from a re-analysis of the deposited data

Results flagged for a closer look

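ALDH1L2 responded less in GFP-positive than in GFP-negative cells in the interaction test with the culture as a block, by -0.75 on the log2 scale (edgeR adjusted p = 0.038), but not without the block (-0.77, adjusted p = 0.15).

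Among the other pathway genes, GOT1 rose less in GFP-positive than in GFP-negative cells, with an interaction of -1.15 (standard error 0.20, edgeR adjusted p = 0.0087) and levels of 103 ± 14.8 and 232 ± 10.6 CPM (SD, n = 3) in control and treated GFP-positive cells against 74.6 ± 3.32 and 373 ± 45.9 CPM in GFP-negative cells.

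TYMS had an interaction of 1.26 (standard error 0.27, edgeR adjusted p = 0.023). Its level was 14.1 ± 2.01 and 11.3 ± 1.34 CPM (SD, n = 3) in control and treated GFP-positive cells. In GFP-negative cells it was 131 ± 30.1 and 43.95 ± 5.24 CPM. TYMS is also among the 9 markers of cycling cells, whose interactions ran from 0.285 to 1.258, with 2 at an adjusted p under 0.05. TYMS itself is the upper end of that range and is among the 2. The part of the other markers in this difference was not tested.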

How the results depend on the processing

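Of 148 alternative counts of called genes 141 stayed within 1.5 times, and of 740 alternative log2 fold changes of the 10 genes 711 kept their direction and call. In GFP-positive cells 8 genes were called higher under every alternative tried, and 0 to 1 lower over left-out libraries. With glmTreat, which tests against a 2-fold change, 7 genes were called higher (without PSPH and MTHFD1L) and 0 lower in treated GFP-negative cells, 0 higher and 1 lower between control fractions, and 1 lower between treated fractions. Removing the GC trend also left 1 lower between treated fractions, where left-out libraries gave 2 to 3 and DESeq2, RLE scaling and the fit of all 12 libraries added PSPH. The replicate block raised the genes with an interaction from 0 to 1 (ALDH1L2) and changed no count of calls in the other comparisons. Numbers shared by treated and control libraries were not taken to pair them. The correlations were -0.04, 0.15 and 0.19 in GFP-positive and -0.09, 0.40 and 0.04 in GFP-negative cells. The 0.40 lies within the range found between same-numbered sorts, and no test separated these sets. Differences that changed sign were not called: ASNS between treated fractions was 0.029 with library size alone and -0.37 to 0.08 over left-out libraries, and the interaction of PSAT1 was 0.051 with DESeq2 and with RLE scaling, 0.245 with library size alone and -0.085 to 0.226 over left-out libraries. The cause was not tested. Library size alone moved the median log2 fold change of all genes by 0.11 for treatment in GFP-positive cells, by 0.17 between treated fractions and by 0.26 in the interaction, and removing the GC trend moved it by 0.16 between control fractions. Over all genes, calls between treated fractions were then 2230 higher and 1770 lower in place of 1541 and 2117 with library size alone, and calls between control fractions 1652 and 1980 in place of 1151 and 2355 with the GC trend removed. With library size alone the interactions over all genes were 266 higher and 84 lower in place of 157 and 198. The fewest counts were those of ASNS, ALDH1L2 and SHMT1, down to 41, 79 and 124 in a library.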
